A study of Homo sapiens and Mus musculus with 20 samples.

Results

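Accessible chromatin around 10 target and stem-cell genes of the WNT pathway was described in SW480, an established human colorectal adenocarcinoma line that carries a truncated APC. The genes were the negative feedback inhibitors AXIN2, NKD1, RNF43 and ZNRF3, the receptor LGR5, the TCF/LEF factors TCF7, LEF1 and TCF7L2, and the target transcription factors ASCL2 and SP5. Members were the regions that held an ATAC-seq peak in any library within the body of one of these genes or 20 kb on either side of it (GENCODE 44, GRCh38), and they numbered 336 of the 252173 regions found over all libraries.

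The 12 libraries made 4 groups of 3. In the NaPr experiment the cells received 10 mM sodium propionate or none (0 mM NaPr), and in the NaBu experiment 1 mM sodium butyrate or none (0 mM NaBu), each for 12 to 16 h. Both compounds are salts of short-chain fatty acids, which bacteria of the colon make by fermenting fibre. Each Omni-ATAC reaction, a transposase assay of open chromatin, began with 50000 viable cells. All 12 libraries came from the same line, in EMEM medium with serum. The experiments carry different dates and have separate untreated libraries, so compound, dose and date cannot be told apart between them, and their values are given side by side. Whether the libraries of a group came from separate cultures is not stated, so p-values measure the spread between these libraries.

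In the absence of a WNT signal, a destruction complex that contains APC and AXIN proteins marks β-catenin for degradation. When that complex fails, as in cells with truncated APC, β-catenin enters the nucleus and joins the TCF/LEF proteins, which bind a short DNA motif and switch on target genes. Several of those targets feed back on the pathway, and others mark or maintain the stem cells at the base of the intestinal crypt. The comparison asked how accessibility at such loci differed after propionate or butyrate.

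Accessibility was read from lists of ATAC-seq peaks. Each value is the percentile rank of a region's strongest peak among the peaks of its own library, from 0 for a region with no peak in the list to 100 for the strongest, and a region was called higher or lower where the adjusted p of limma was below 0.05. A rank states a place in a list and not an amount. The number of overlapping tags at the summit was therefore recovered as a second reading, from fold enrichment and the p that sets the rank. It is given as tags or as a log2 ratio of treated to untreated after scaling each library. The lists held 112145 to 144398 intervals in the NaPr experiment and 108442 to 128955 in the NaBu experiment, and each was limited to its 300000 strongest summits. The estimated background pileup, which follows depth, ranged from 0.936 to 2.35 tags in the NaPr and from 2.11 to 3.03 in the NaBu experiment. The NaPr libraries were thus mostly the shallower, though the ranges overlapped, and the more uneven. Promoters of 8 of 11 colon epithelial markers, EPCAM and CDX2 among them, held a peak in all 12 libraries, KRT20 and LGALS4 in some and CDX1 in none. Of the markers of other cell types, COL1A1, COL1A2, PDGFRA and CD68 held a promoter peak in all 12, and PTPRC, CD3E, SPI1, CDH5, COL3A1 and DCN in none, while PDGFRB held one in 7 libraries, VWF in 6 and PECAM1 in 2.

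Sequences from the hg38 reference are shown for some of the regions named below that hold the motif TCF/LEF proteins bind. Each is the 200 bp around the strongest summit (plus strand). Other named regions also held a match and are not shown, among them the promoter regions of AXIN2, NKD1 and TCF7L2. Capitals mark exact matches on either strand to CTTTGAT or CTTTGAA (TCF/LEF), TGACTCA or TGAGTCA (AP-1), CAGCTG (an E-box) and GGGCGG (GC box). The AP-1 strings are reverse complements of each other, and no string contains another. The first lies 3.1 kb upstream of SP5 (chr2:170712163-170712362) and holds 2 TCF/LEF matches, the second is an intron of ZNRF3 (chr22:28923972-28924171) with 2, and the third lies 0.6 kb upstream of LGR5 (chr12:71439085-71439284) with 1 TCF/LEF and 1 AP-1 match.
SP5 upstream: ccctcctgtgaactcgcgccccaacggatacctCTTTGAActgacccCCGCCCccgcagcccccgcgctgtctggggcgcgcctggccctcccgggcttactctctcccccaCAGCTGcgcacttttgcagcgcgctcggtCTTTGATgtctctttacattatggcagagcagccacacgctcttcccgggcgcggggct
ZNRF3 intron: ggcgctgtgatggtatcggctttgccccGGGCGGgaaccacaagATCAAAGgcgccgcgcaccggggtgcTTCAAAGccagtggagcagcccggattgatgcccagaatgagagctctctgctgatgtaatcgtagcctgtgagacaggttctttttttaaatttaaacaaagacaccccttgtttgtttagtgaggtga
LGR5 upstream: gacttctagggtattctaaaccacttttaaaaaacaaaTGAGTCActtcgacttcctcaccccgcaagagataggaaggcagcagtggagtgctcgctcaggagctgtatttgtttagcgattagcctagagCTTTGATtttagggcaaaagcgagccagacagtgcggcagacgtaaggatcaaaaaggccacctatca

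The SP5 promoter is shown because it held 3 TCF/LEF matches within the 250 bases before the start (chr2:170715087-170715336, plus strand, RefSeq on GRCh38). Of the 10 genes, 5 had an entry in the RefSeq promoter table, and SP5 was the 1 among them with a TCF/LEF match in those 250 bases. Over all 27305 RefSeq promoters of that length, 6.03% held one.
SP5 promoter: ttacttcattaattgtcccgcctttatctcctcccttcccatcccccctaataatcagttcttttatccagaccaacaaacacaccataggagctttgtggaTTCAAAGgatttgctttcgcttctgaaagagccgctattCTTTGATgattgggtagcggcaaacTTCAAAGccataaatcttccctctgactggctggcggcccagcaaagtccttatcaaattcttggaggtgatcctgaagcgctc

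Matches to the TCF/LEF strings lay within the 200 bp around the summit of 29 of the 184 member regions tested in the NaPr experiment (15.8%), and of 8.12% of all regions tested. In the NaBu experiment they were found in 33 of 185 member regions (17.8%), and in 10.1% of all regions. The median GC content of these windows was 53.8% and 53.0% in the first case and 52.5% and 51.0% in the second. By gene, over regions tested in either experiment, matches were present in 9 of 43 ZNRF3 regions, 9 of 40 in NKD1, 6 of 25 in LEF1, 4 of 26 in AXIN2, 4 of 34 in TCF7L2, 2 of 32 in RNF43, 1 each in LGR5, ASCL2 and SP5, and none of 10 in TCF7. AP-1 strings were found in 6 of the 34 member regions that were higher with NaBu (17.6%) and in 2 of the 44 that were lower (4.55%). Among all regions called with NaBu those shares were 21.4% and 11.4%. These are counts of letters in a window and were not tested.

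With NaPr, 2 member regions were higher and 11 were lower of 184 tested. The lower ones lay in AXIN2, NKD1, RNF43, ZNRF3, LEF1 and SP5, and the higher ones in LGR5 and TCF7. Over all 124067 regions tested the calls leaned the other way, with 3.1% higher and 2.22% lower against 1.09% and 5.98% of the member regions. The median change was -1.69 percentile points over member regions and 0.526 over all regions. None of the 13 calls held when each library was left out in turn, although each kept its direction, and without NaPr treated replicate 3 no region of the genome was called by limma (26369 had an unadjusted p below 0.05). In a bulk assay, a change in every cell and a change in the share of cells that differ cannot be told apart. Unadjusted p below 0.05 was reached by 26.6% of member regions and 23.1% of all regions.

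With NaBu, 34 member regions were higher and 44 were lower of 185 tested. Of all 123730 regions tested, 24% were higher and 13.1% were lower, against 18.4% and 23.8% of the member regions. The median change was -1.90 percentile points over member regions and 2.92 over all. Of these calls, 24 higher and 27 lower ones held without any single library.

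**Figure D1:**
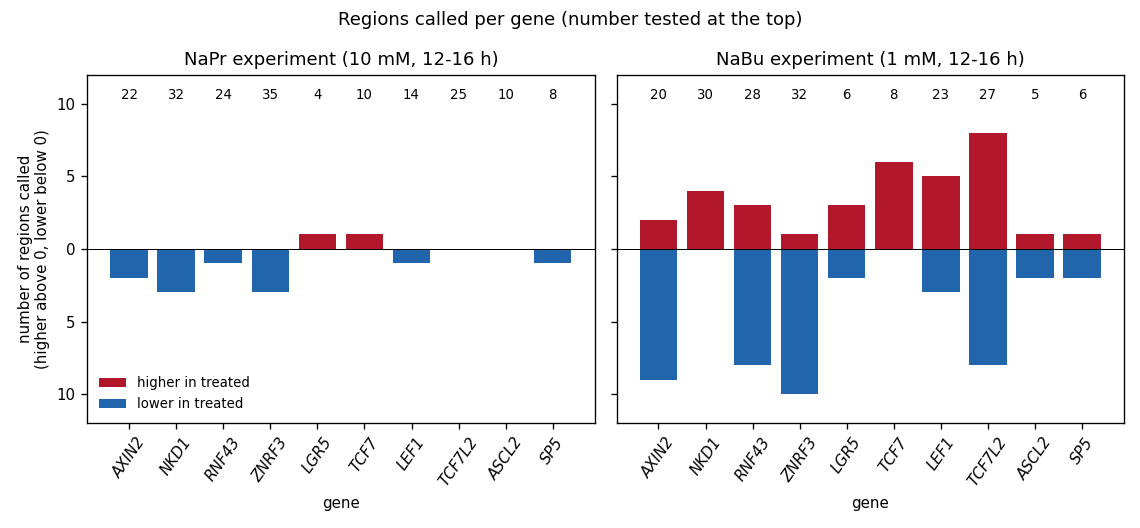
Number of regions called higher (above 0) or lower (below 0) in treated than in untreated libraries for each gene, with the NaPr experiment on the left, the NaBu experiment on the right and the number of regions tested at the top. With NaBu, the highest counts of lower regions were 10 of 32 in ZNRF3, 9 of 20 in AXIN2, 8 of 28 in RNF43 and 8 of 27 in TCF7L2, and 6 of 8 regions in TCF7 were higher and none lower.

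Peak lists of the NaBu-treated libraries were longer than those of their untreated partners, which raises percentiles in the treated libraries. With 1 denominator for all libraries (a choice made after seeing the data), 31 member regions were higher and 54 lower with NaBu, when 19.7% and 17.2% of all regions were called. With NaPr that alternative gave 5 higher and 17 lower, when 4.54% and 3.97% of all regions were called. The median change of all regions was then 0.699 in the NaBu and 0.0249 in the NaPr experiment, and that of member regions -3.22 and -1.20. Among the 107 member regions with a peak in all 6 NaBu libraries, tags scaled by the median of the library were higher in 13 and lower in 50, when 24.4% and 28.6% of all such regions were called. Scaling by the background pileup gave the same counts of 13 and 50, when 24% and 28.8% of all were called. In the NaPr experiment the scaling decided the split: of 91 member regions, 4 were higher and 30 lower by the median (12.2% and 19.9% of all regions), but 5 were higher and 3 lower by the background (13.5% and 1.1% of all). The median log2 change of all these regions was -0.05 by the first and 0.21 by the second.

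A region was counted as gained where all 3 treated libraries and none of the untreated ones listed a peak, and as lost where the reverse was true. With NaPr, 6 member regions were gained and 7 lost, when 2.95% and 1.5% of all tested regions were. With NaBu, 9 were gained and 17 lost, when 6.41% and 3.72% of all were. A lost region is one that fell below the limit of the list and not one shown to be closed. A gained or lost region entered the test through the group that listed it. Its change and p rest on the 0 given to the other group. A peak in all 6 libraries was held by 5 of the 11 lower and 2 of the 2 higher NaPr calls. With NaBu it was held by 21 of the 44 lower and 23 of the 34 higher calls. The lost regions were mostly of low contrast, with a median of the highest fold enrichment over local background of 3.60 for the 17 with NaBu and 3.57 for the 7 with NaPr, and it was 5.22 and 4.64 for the gained regions.

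**Figure D2:**
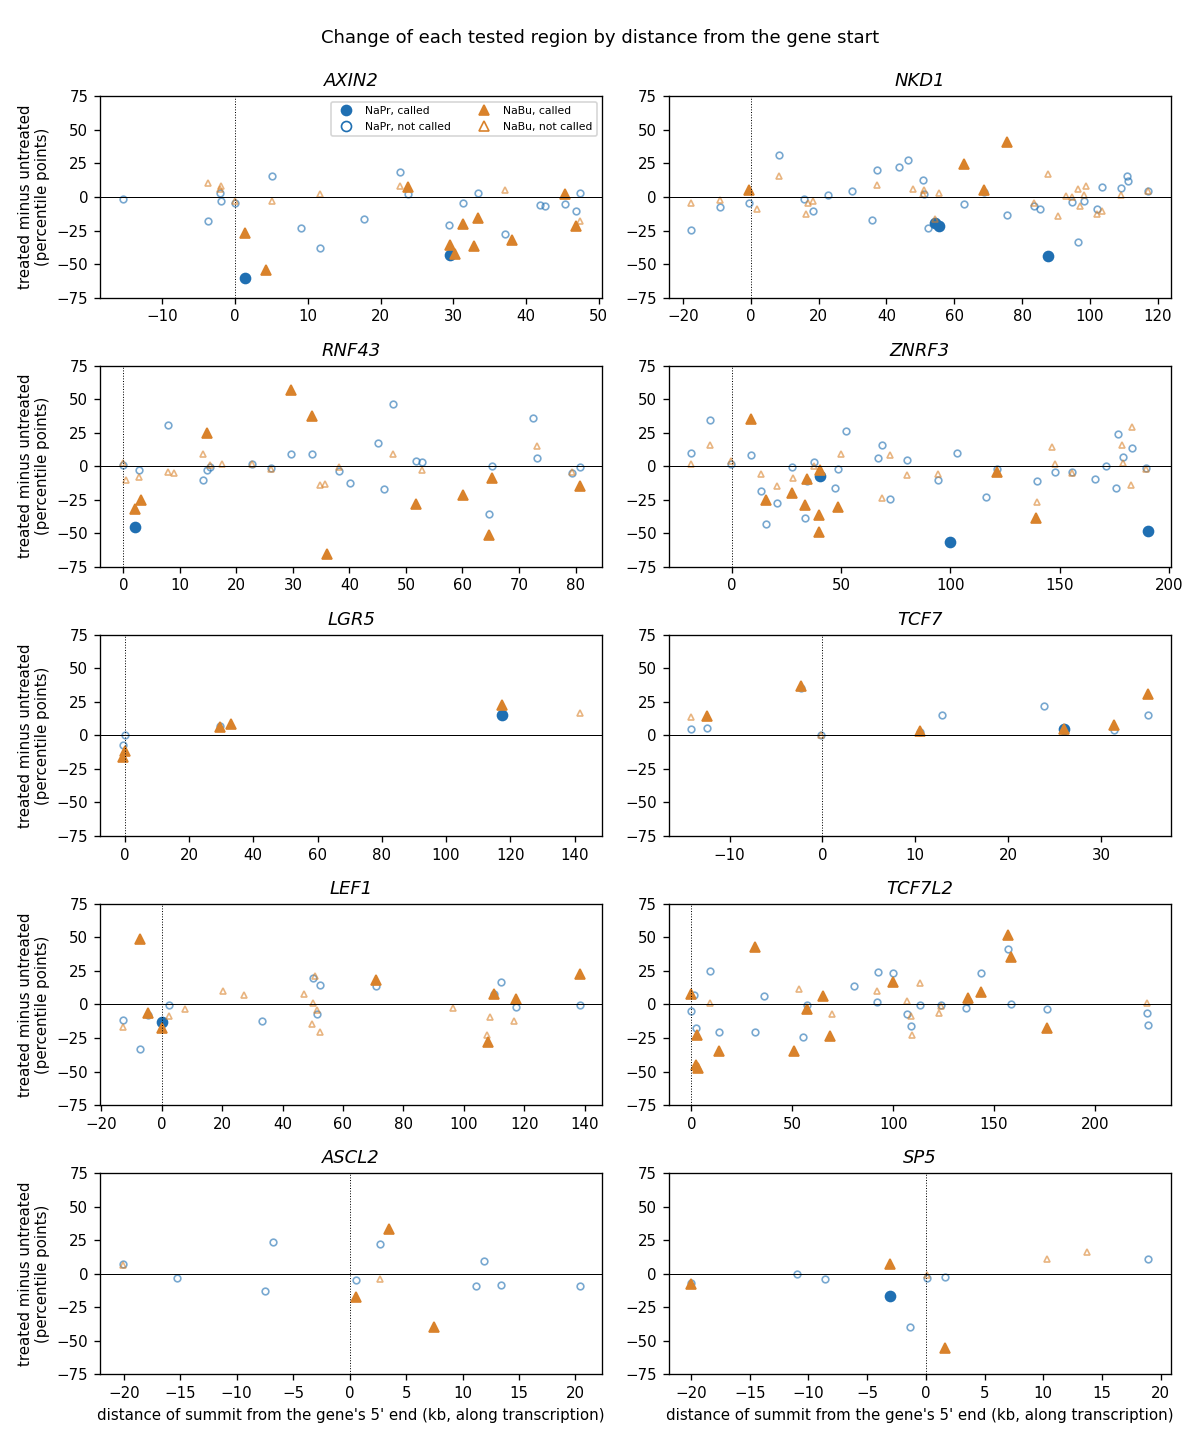
Change of mean percentile rank, treated minus untreated, of each tested member region (vertical axis, percentile points) against the distance of its summit from the 5' end of the gene (horizontal axis, kb along transcription), with circles for NaPr, triangles for NaBu and filled symbols for called regions. Called regions of AXIN2 with NaBu lay below 0 at 9 of 11 positions, and those of TCF7 lay above 0 at all 6.

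The promoter region of each gene was the region over its 5' end, or the nearest one within 1 kb. All 10 promoters held a peak in all 12 libraries. With NaBu, the promoter ranks of LEF1, ASCL2 and LGR5 fell, and those of NKD1 and TCF7L2 were higher. With NaPr, that of LEF1 fell. By rank, 1 of 10 promoters was lower and none higher with NaPr, when 5.64% and 0.91% of the promoters of protein-coding genes were, and 3 were lower and 2 higher with NaBu, when 19.7% and 9.76% were.

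LEF1 is a TCF/LEF factor and itself a WNT target. Its promoter (chr4:108168475-108169495, over the UTR at its start) ranked 78.7, 84.0 and 84.5 in the untreated and 76.2, 64.7 and 66.9 in the NaPr-treated libraries, a fall by 13.1 ± 3.25 percentile points (SE, n = 3 and 3, adjusted p = 0.0430, 0.0455 to 0.160 when single libraries were left out). In the NaBu experiment it ranked 63.5, 59.5 and 65.5 in untreated and 44.1, 44.5 and 47.8 in treated libraries. Every treated library lay below every untreated one in both experiments, and the NaBu difference was a fall by 17.4 ± 4.05 points (adjusted p = 0.0112). Tags at its summit numbered 187, 113 and 142 in untreated and 80, 78 and 80 in NaBu-treated libraries, a log2 change of -0.81 ± 0.12 by the median scaling (adjusted p = 1.30e-05). With NaPr the log2 change was -0.82 ± 0.13 by the median (adjusted p = 3.33e-06) and -0.56 ± 0.23 by the background (adjusted p = 0.0868).

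ASCL2 encodes a basic helix-loop-helix factor of intestinal stem cells. Its promoter region (chr11:2268908-2271419, over the coding exon) ranked 51.0, 55.7 and 46.0 in untreated and 33.3, 34.3 and 32.8 in NaBu-treated libraries, without overlap, and fell by 17.5 ± 5.26 points (adjusted p = 0.0310). The call was lost without untreated replicates 1 or 2 or treated replicates 1, 2 or 3 (highest adjusted p = 0.0849). Its tags went from 138, 96 and 86 to 57, 56 and 56, a log2 change of -0.84 ± 0.14 by the median. In the NaPr experiment the ranks were 74.9, 85.3 and 83.3 and 77.6, 76.3 and 74.7, which overlapped, and the promoter was not called (adjusted p = 0.292).

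LGR5 encodes a receptor for R-spondins and marks the stem cells of the crypt. Its promoter region (chr12:71439389-71441519, over its start and a coding exon) ranked 84.8, 88.1 and 75.6 in untreated and 74.7, 69.1 and 70.1 in NaBu-treated libraries, a fall by 11.5 ± 3.20 points (adjusted p = 0.0228). The call was lost without untreated replicates 1 or 2 or treated replicates 2 or 3 (highest adjusted p = 0.0975). Its tags were 267, 195 and 150 and 120, 103 and 107, a log2 change of -0.80 ± 0.14. With NaPr the ranks of 77.8, 77.7 and 72.4 and 80.0, 73.9 and 74.8 overlapped (adjusted p = 0.965).

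NKD1 and TCF7L2 had higher promoter ranks with NaBu but no gain in tags. NKD1 encodes an inhibitor that binds Dishevelled, and its promoter (chr16:50547302-50548803) ranked 85.9, 87.6 and 86.7 in untreated and 92.3, 91.6 and 91.1 in treated libraries (a difference of 4.91 ± 0.850 points, adjusted p = 0.00315). Its tags were 333, 228 and 253 and 243, 230 and 233, a log2 change of -0.14 ± 0.09 that was not called (adjusted p = 0.203). The highest fold enrichment over the local background in the region was 8.20, 8.19 and 8.32 in untreated and 12.1, 12.1 and 11.5 in treated libraries. That contrast was larger while tag numbers at the strongest summit were similar, and the summits behind the readings may differ. TCF7L2, the main TCF/LEF factor of colon epithelium, had the same pair of readings at its promoter (chr10:112949544-112950426), with ranks of 78.7, 79.1 and 72.5 and 84.9, 84.2 and 84.8 (a difference of 7.84 ± 1.90, adjusted p = 0.0133) and a log2 tag change of -0.03 ± 0.12. The TCF7L2 call was lost without treated replicate 3 (highest adjusted p = 0.0524). With NaPr neither promoter was called by rank, at adjusted p = 0.0893 for NKD1 and 0.219 for TCF7L2.

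**Figure D3:**
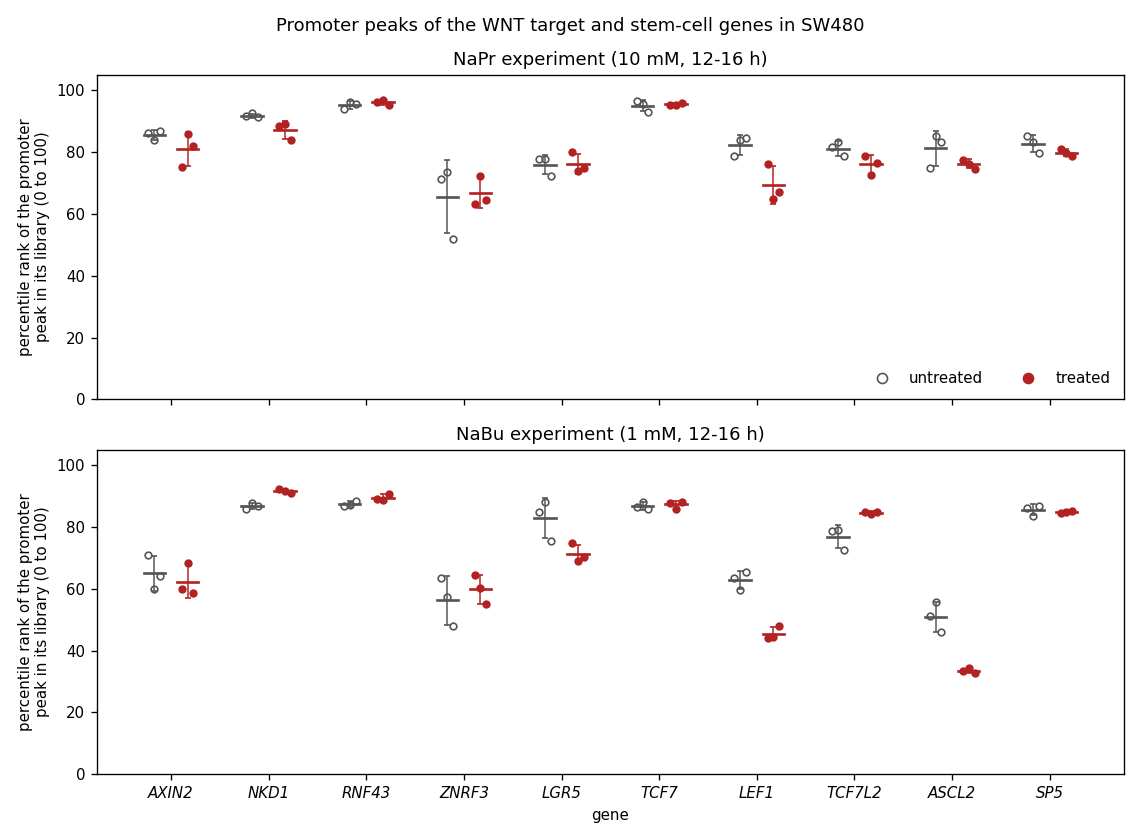
Percentile rank of the promoter peak in each library (vertical axis, 0 to 100) for the 10 genes, with the NaPr experiment above and the NaBu experiment below, open symbols for untreated and filled symbols for treated libraries, bars for means and whiskers for 1 SD (n = 3). The treated libraries lie below the untreated ones for LEF1 in both panels and for ASCL2 and LGR5 in the lower panel, and above them for NKD1 and TCF7L2 in the lower panel.

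The remaining promoters were not called by rank in either experiment. AXIN2 encodes a scaffold of the destruction complex, and its promoter (chr17:65560675-65562390) ranked 71.0, 59.8 and 64.3 in untreated and 59.8, 68.4 and 58.5 in NaBu-treated libraries (adjusted p = 0.613). Its tags were nevertheless fewer, 205, 110 and 130 against 82, 99 and 79, a log2 change of -0.68 ± 0.13 (adjusted p = 2.58e-04). SP5, a zinc finger factor induced by WNT signals, had a log2 tag change of -0.48 ± 0.09 at its promoter (chr2:170714181-170716722, adjusted p = 1.46e-04), and RNF43, a ubiquitin ligase that removes Frizzled receptors, had -0.24 ± 0.09 (chr17:58417391-58418287, adjusted p = 0.0403). ZNRF3, the related ligase (chr22:28882516-28885349), and TCF7 (chr5:134113979-134116275) were not called on tags with NaBu, at log2 changes of -0.29 ± 0.17 and -0.21 ± 0.10.

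On tags, 6 of the 10 promoters were lower with NaBu and none higher. The same scaling called 58.9% of the promoters of protein-coding genes lower (59.4% by the background scaling, which called the same number of member promoters), with a median log2 change of -0.32 over those promoters and -0.39 over the 10. With NaPr, 7 of 10 were lower by the median scaling, when 44.2% of all promoters were, and none by the background scaling, when 0.983% were. The NaBu count of 6 of 10 is close to those shares of all promoters.

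**Figure D4:**
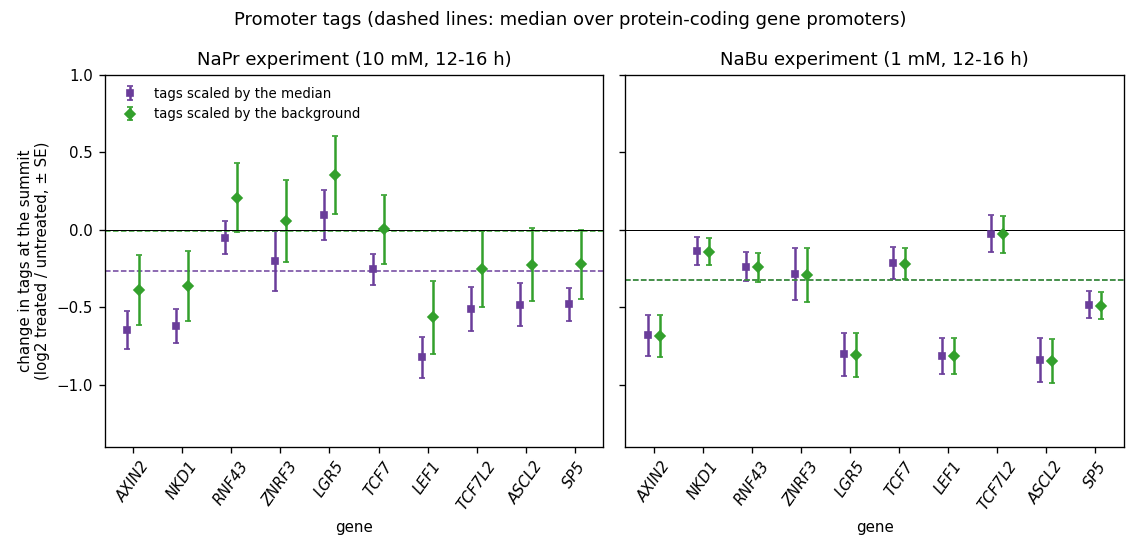
Log2 ratio of tags at the promoter summit, treated over untreated, for the 10 genes (points with SE, n = 3 and 3), scaled by the library median (squares) or by the background pileup (diamonds), with dashed lines at the median over all promoters of protein-coding genes. In the NaBu experiment LEF1, ASCL2, LGR5, AXIN2 and SP5 lie below the dashed lines, at -0.81, -0.84, -0.80, -0.68 and -0.48 by the median, and in the NaPr experiment the scalings differ.

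The feedback inhibitors AXIN2, NKD1, RNF43 and ZNRF3 held 110 of the 185 member regions tested with NaBu, of which 27 were lower (24.5%) and 10 higher (9.09%), against 13.1% and 24% of all regions. Their share of lower regions was close to the 23.8% of all member regions. With 1 denominator 35 were lower and 11 higher. Of 113 tested with NaPr, 9 were lower (7.96%) and none higher, against 2.22% and 3.1% of all regions (13 and 2 with 1 denominator). On tags with NaBu, 35 of 68 were lower (51.5%) and 4 higher by either scaling, when 28.6% and 28.8% of all regions were lower by the median and by the background. With NaPr, 16 of 54 were lower (29.6%, against 19.9% of all) and none higher by the median, but 2 were lower (3.70%, against 1.1%) and 1 higher by the background.

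AXIN2 had 9 lower and 2 higher regions of 20 tested with NaBu. The largest change was at a region that overlaps a coding exon, with its summit 4.2 kb from the start and the 200 bp around it outside exons (chr17:65557346-65557812), and which ranked 49.0, 64.2 and 49.0 in untreated libraries and had no listed peak in any NaBu-treated library (a fall by 54.1 ± 6.33 points, adjusted p = 7.35e-04). Its fold enrichment in untreated libraries was 3.43, 4.34 and 3.46, with 148, 127 and 110 tags. Ranked by fold enrichment, this region stayed called (adjusted p = 0.0322). The other lower AXIN2 regions were not called by that ranking (adjusted p = 0.0587 to 0.235), although they kept their direction. Further 3' the lower regions formed a run from 29.6 to 33.4 kb, of which the strongest (chr17:65527047-65528534, downstream of the gene) fell from 79.2, 83.1 and 83.3 to 64.3, 60.0 and 73.4. Its tags numbered 291, 228 and 269 and 121, 121 and 156, a log2 change of -0.94 ± 0.11 (adjusted p = 1.53e-06). The larger of the 2 called rises (chr17:65536782-65538652, 23.7 kb from the start) took the ranks from 85.0, 84.7 and 82.4 to 93.8, 91.9 and 89.8 (adjusted p = 0.00234), at a log2 tag change of 0.17 ± 0.10 that was not called.

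Both AXIN2 regions that were lower with NaPr were also lower with NaBu. An intronic region 1.3 kb from the start (chr17:65560192-65560551), next to the promoter, ranked 69.6, 62.2 and 49.1 in the untreated libraries of the NaPr experiment and was listed in no treated one (a fall by 60.3 ± 11.2 points, adjusted p = 0.0163). In the NaBu experiment it ranked 33.9, 25.1 and 20.8 and was again listed in no treated library (adjusted p = 0.00530). The other, in an intron 29.6 kb from the start (chr17:65531974-65532096), ranked 55.1, 33.2 and 40.6 in untreated and 0 in all NaPr-treated libraries, and 43.1, 36.4 and 39.1 against 11.8, 0 and 0 with NaBu. Fold enrichment in the libraries that listed them was low, between 2.03 and 3.57.

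ZNRF3 had 10 lower and 1 higher region of 32 tested with NaBu. The largest fall was at an intronic region 40 kb from the start (chr22:28923537-28923659), from 44.9, 55.5 and 52.4 to 0, 0 and 5.78 (adjusted p = 7.79e-04). It is next to the intronic region whose sequence with 2 TCF/LEF matches is shown above (chr22:28923773-28924635, 40.5 kb), which was lower by rank in both experiments. There the ranks were 86.4, 88.4 and 85.9 against 82.0, 78.1 and 78.7 with NaPr (adjusted p = 0.0361) and 91.2, 91.0 and 91.5 against 89.0, 88.8 and 88.0 with NaBu (adjusted p = 0.0242), without overlap. The NaPr call was lost whichever library was left out (adjusted p = 0.0553 to 0.138) and was not made on tags scaled by the background (adjusted p = 0.232). The NaBu call was lost without untreated replicate 3 or treated replicate 3 (highest adjusted p = 0.0605). Its tags fell with NaBu from 392, 256 and 304 to 192, 192 and 191, a log2 change of -0.65 ± 0.09 (adjusted p = 5.68e-06), while its fold enrichment was 10.7, 9.51 and 10.1 in untreated and 12.0, 11.7 and 11.3 in treated libraries and its rank by fold enrichment was higher (by 8.24 points, adjusted p = 0.0340). The direction at this region therefore depended on whether tags or contrast were read.

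The 1 higher ZNRF3 region with NaBu was intronic, 8.8 kb from the start (chr22:28891891-28892769). It ranked 17.9, 32.3 and 24.1 in untreated and 61.9, 60.3 and 57.0 in treated libraries, without overlap (a rise by 35.0 ± 5.75 points, adjusted p = 0.00256). Its tags rose from 25, 22 and 22 to 48, 49 and 45, a log2 change of 1.09 ± 0.17. With NaPr, 3 ZNRF3 regions of 35 were lower, and the largest change was in an intron 99.9 kb from the start (chr22:28982917-28983683), with ranks of 74.3, 57.2 and 47.0 in untreated and 0, 0 and 9.53 in treated libraries (adjusted p = 0.0247). The third lay downstream of the gene, nearest to the start of KREMEN1 (chr22:29073801-29074226).

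RNF43 had 8 lower and 3 higher regions of 28 tested with NaBu. An intronic region 36.1 kb from the start (chr17:58381198-58381653) ranked 61.4, 68.1 and 66.1 in untreated libraries, at a fold enrichment of 8.04, 7.66 and 7.96, and was listed in no treated library (a fall by 65.2 ± 5.47 points, adjusted p = 3.18e-04). With unlisted libraries scored as 0, this was the largest negative change among all member regions in that experiment. Nearer to the start, another intronic region (chr17:58387815-58388317) was listed in no untreated library and ranked 62.0, 49.8 and 59.2 in treated ones (a rise by 57.0 ± 5.88 points, adjusted p = 5.08e-04), the largest positive change among them. Between them, an additional intronic region (chr17:58383876-58384758) rose from 24.5, 54.5 and 51.1 to 79.2, 84.5 and 78.5 and its tags from 51, 66 and 68 to 121, 151 and 123, a log2 change of 1.15 ± 0.18 (adjusted p = 2.97e-05). Higher and lower regions thus lay side by side in the introns of this gene.

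The RNF43 region lower with NaPr (chr17:58415402-58415645, over a coding exon 2.1 kb from the start) was also lower with NaBu. It ranked 58.9, 41.7 and 47.4 and 0, 2.32 and 9.08 in the NaPr experiment (adjusted p = 0.0418) and 57.6, 67.6 and 64.6 and 24.3, 25.9 and 44.5 in the NaBu experiment (adjusted p = 0.00717). Its tags in the latter were 117, 103 and 110 and 42, 47 and 60, a log2 change of -1.11 ± 0.15.

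NKD1 had 4 higher and no lower region of 30 tested with NaBu by rank, and 3 lower ones with 1 denominator. The largest rise was intronic, 75.5 kb from the start (chr16:50622800-50624155), with ranks of 14.9, 0 and 0 in untreated and 47.1, 34.3 and 55.9 in treated libraries (adjusted p = 0.00435), and its nearest transcript start was that of SNX20. With NaPr, 3 of 32 regions were lower and none higher. The largest change was at the UTR 87.7 kb from the start (chr16:50635618-50636306), which ranked 57.3, 36.3 and 38.9 in untreated and 0 in treated libraries. The other 2 were intronic neighbours with a peak in all 6 libraries. At 55.4 kb (chr16:50603192-50604235) the ranks fell from 92.3, 91.2 and 88.7 to 64.5, 73.4 and 70.1 (by 21.4 ± 2.45 points, adjusted p = 0.00277), and at 54.3 kb (chr16:50602592-50603082) from 88.4, 85.3 and 82.7 to 72.2, 66.2 and 60.9 (adjusted p = 0.00984). The first call was lost without treated replicate 3 (highest adjusted p = 0.0581) alone. The second held only without treated replicate 1 (adjusted p = 0.0349, highest 0.0719). Both were lower on tags under both scalings, at log2 changes of -1.30 ± 0.12 and -1.09 ± 0.12 by the median and -1.05 ± 0.23 and -0.84 ± 0.23 by the background. In the NaBu experiment neither was called, at adjusted p = 0.675 and 0.0882.

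At LGR5 the promoter side and the gene body went in opposite directions with NaBu. Of 6 regions tested, the promoter and the region 0.6 kb upstream of the start were lower and 3 regions in the body were higher. The upstream region (chr12:71438919-71439288), shown above with its TCF/LEF and AP-1 matches, ranked 65.3, 69.4 and 61.5 in untreated and 52.7, 48.9 and 45.6 in treated libraries (a fall by 16.3 ± 4.04 points, adjusted p = 0.0143), at a log2 tag change of -0.75 ± 0.13. That call was lost without untreated replicate 2 (highest adjusted p = 0.0537). In the body, regions 29.6 and 32.9 kb from the start (chr12:71469293-71470267 and chr12:71472272-71473039) rose from 80.6, 79.8 and 82.0 to 87.5, 86.1 and 88.0 and from 71.5, 75.5 and 75.1 to 84.0, 82.1 and 82.2. Their log2 tag changes were 0.24 ± 0.10 (adjusted p = 0.0557) and 0.32 ± 0.11 (adjusted p = 0.0182), and the nearest transcript start to both was that of TSPAN8.

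The LGR5 region 117.4 kb from the start (chr12:71556554-71557824) rose in both experiments. It spans a coding exon of LGR5, and its summit lies in an intron and nearest to the start of ZFC3H1. With NaPr it ranked 71.9, 60.6 and 61.5 in untreated and 82.6, 77.8 and 78.9 in treated libraries, a rise by 15.1 ± 3.55 points (adjusted p = 0.0363, 0.0280 to 0.123 without single libraries). With NaBu it ranked 55.9, 66.0 and 63.7 and 84.5, 86.3 and 82.8, a rise by 22.7 ± 2.84 points (adjusted p = 9.21e-04). The groups did not overlap in either experiment. Its tags went from 53, 46 and 52 to 112, 124 and 108 with NaBu, a log2 change of 1.24 ± 0.14, and with NaPr from 19, 25 and 33 to 31, 36 and 66, a log2 change of 0.85 ± 0.20 by the median and 1.10 ± 0.27 by the background (adjusted p = 6.96e-04 and 0.00148).

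**Figure D5:**
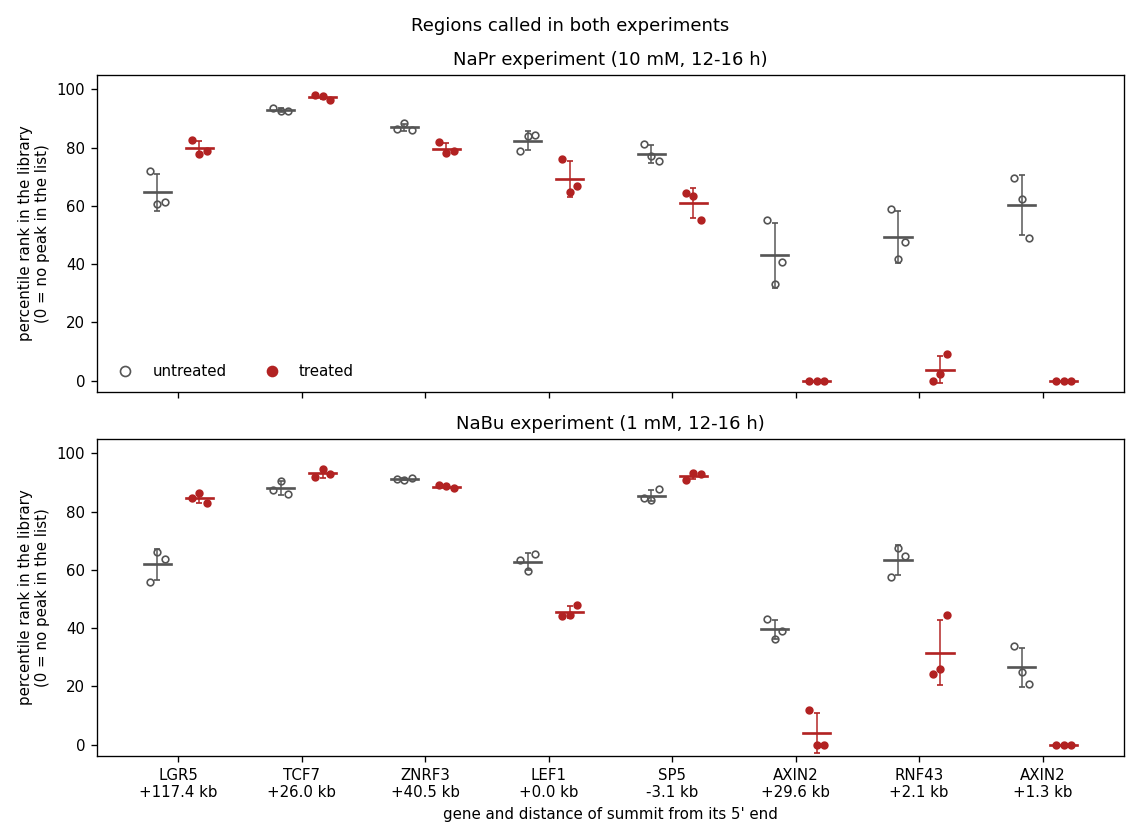
Percentile rank in each library (vertical axis, 0 where no peak was listed) of the 8 member regions called in both experiments, with the NaPr experiment above and the NaBu experiment below, open symbols for untreated and filled symbols for treated libraries, bars for means and whiskers for 1 SD (n = 3). The LGR5 and TCF7 regions are higher in treated libraries in both panels, 5 regions are lower in both, and the SP5 region is lower above and higher below.

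Among the TCF/LEF factors, 19 of 58 regions were higher (32.8%) and 11 lower (19.0%) with NaBu, against 24% and 13.1% of all regions. With 1 denominator 13 were higher and 13 lower (22.4% each, against 19.7% and 17.2% of all). On tags scaled by the median, 7 of 29 were higher (24.1%) and 9 lower (31.0%), against 24.4% and 28.6% of all. The balance of directions thus depended on the reading. With NaPr, 1 of 49 was higher and 1 lower (2.04% each, against 3.1% and 2.22% of all regions). TCF7, which encodes TCF-1, had 6 of 8 regions higher and none lower with NaBu, 4 of them also with 1 denominator. The largest change was 2.3 kb upstream of the start (chr5:134112176-134112554), from ranks of 12.5, 14.5 and 0 to 37.8, 46.1 and 53.9 (adjusted p = 0.00446). The TCF7 region called in both experiments lay in an intron of the main transcript 26 kb from the start (chr5:134140198-134141558). It ranked 93.5, 92.5 and 92.5 and 98.1, 97.6 and 96.5 with NaPr (a rise by 4.59 ± 0.839 points, adjusted p = 0.0152) and 87.5, 90.6 and 86.0 and 91.8, 94.6 and 92.9 with NaBu (a rise by 5.07 ± 1.30 points, adjusted p = 0.0168). When single libraries were left out, the NaPr call held only without untreated replicate 1 (adjusted p = 0.0334, highest 0.0811). The NaBu call was lost without untreated replicates 1 or 3 or treated replicates 2 or 3 (highest adjusted p = 0.0789). The log2 tag changes were 0.32 ± 0.10 by the median and 0.57 ± 0.22 by the background with NaPr (adjusted p = 0.0113 and 0.0601), and 0.28 ± 0.10 with NaBu.

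LEF1 had 5 higher and 3 lower regions of 23 with NaBu, and 2 and 5 with 1 denominator. The largest rise was 7.2 kb upstream of the start (chr4:108176044-108176389), from 0, 14.0 and 19.3 to 60.1, 57.2 and 62.3 (by 48.8 ± 6.65 points, adjusted p = 0.00123). In the NaPr experiment the same region ranked 47.4, 49.9 and 1.24 in untreated libraries and was listed in no treated one, a difference that was not called (adjusted p = 0.166) but was with 1 denominator (adjusted p = 0.0473). The largest fall with NaBu was intronic, 108.1 kb from the start (chr4:108060768-108060931), from 40.4, 25.7 and 42.3 to 0, 0 and 24.0 (adjusted p = 0.0293). It was not called without untreated replicates 1 or 3 or treated replicates 1 or 2 (highest adjusted p = 0.107). Upstream of the promoter, at 4.5 kb (chr4:108172580-108173702), tags fell from 273, 173 and 169 to 139, 126 and 122, a log2 change of -0.58 ± 0.12 (adjusted p = 4.01e-04).

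TCF7L2 had 8 higher and 8 lower regions of 27 with NaBu and none called of 25 with NaPr. Near the start, 4 of the lower regions lay at 2.2, 2.8, 3.1 and 13.7 kb, and the largest fall (chr10:112953262-112953395, 3.1 kb) took ranks from 46.1, 51.5 and 52.2 to 7.07, 0 and 0 (adjusted p = 7.74e-04). Far into the gene, an intronic region at 157.2 kb (chr10:113106949-113107918) was listed in no untreated library and ranked 53.4, 46.7 and 56.1 in NaBu-treated ones (a rise by 52.1 ± 5.59 points, adjusted p = 5.66e-04). It also had the smallest p of this gene with NaPr, at ranks of 0, 42.3 and 46.4 and 77.7, 66.1 and 70.1, which was not called (adjusted p = 0.0589). Its neighbour at 158.5 kb (chr10:113108274-113108778) went from 24, 16 and 16 to 44, 42 and 58 tags with NaBu, a log2 change of 1.43 ± 0.18 (adjusted p = 4.16e-06).

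Of the target transcription factors, ASCL2 had 1 higher and 2 lower regions of 5 tested with NaBu. Downstream of its short body, a region at 7.5 kb from the start (chr11:2262488-2263348) ranked 37.9, 48.8 and 33.1 in untreated libraries and was listed in no treated one (adjusted p = 0.00170), and a region at 3.5 kb (chr11:2267075-2267396) was listed in treated libraries alone, at 24.3, 40.7 and 35.0 (adjusted p = 0.00322). Fold enrichment was between 3.16 and 4.03 at both. None of its 10 regions was called with NaPr, where the smallest p fell to a region over the UTR (chr11:2267530-2268612, adjusted p = 0.220).

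SP5 had 2 lower and 1 higher region of 6 with NaBu. A region over a coding exon 1.6 kb from the start (chr2:170716862-170717319) ranked 60.0, 61.5 and 45.3 in untreated libraries and was listed in no treated one (a fall by 55.6 ± 6.38 points, adjusted p = 6.92e-04), at 244, 161 and 143 tags but a fold enrichment of 3.27, 3.31 and 2.70. A region 20 kb upstream (chr2:170694742-170696995) fell from 86.3, 87.8 and 88.4 to 80.5, 79.8 and 80.0 (adjusted p = 0.00174), and its tags from 317, 230 and 274 to 156, 159 and 159, a log2 change of -0.73 ± 0.09.

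The SP5 region 3.1 kb upstream of the start (chr2:170711746-170712404), whose 2 TCF/LEF matches are shown above, was the 1 member region called in opposite directions. With NaPr it ranked 81.1, 77.1 and 75.3 in untreated and 64.4, 63.3 and 55.1 in treated libraries, a fall by 16.9 ± 3.69 points (adjusted p = 0.0287, 0.0612 to 0.109 without single libraries). Its tags gave a log2 change of -0.89 ± 0.12 by the median and -0.63 ± 0.23 by the background, both called. With NaBu it ranked 84.8, 84.0 and 87.7 and 91.0, 93.1 and 92.9, a difference of 6.87 ± 1.18 points upward (adjusted p = 0.00305), but tags numbered 432, 268 and 343 and 301, 322 and 321, a log2 change of -0.07 ± 0.08 (adjusted p = 0.505). The higher rank with NaBu thus came with a fold enrichment of 5.53, 5.26 and 6.13 against 7.67, 8.66 and 8.70 and no called change in tags.

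Of the 13 member regions called with NaPr, 2 were higher in both experiments, 5 were lower in both, and the SP5 region changed sides. The 5 lower in both lay in AXIN2 (2), RNF43, ZNRF3 and LEF1, and they made up 5 of the 11 lower with NaPr and 5 of the 44 lower with NaBu. Over all regions, 68.2% of the 3847 higher and 48.7% of the 2751 lower with NaPr were called in the same direction with NaBu. For the lower ones, 5 of 11 (45.5%) is near that background. An opposite call with NaBu was made at 2.65% of the 2751 lower regions and at 1 of the 11 member regions (9.09%). Of the other 5 called with NaPr, 3 were tested but not called with NaBu and 2 were not tested there. Among NaBu calls of member regions with a peak in all 6 libraries, the 21 lower ones were all lower and called on tags. Of 23 higher ones, 20 had more tags and 12 of those were called, and the 3 with fewer were the promoters of NKD1 and TCF7L2 and the SP5 upstream region. Tags were solved in part from the same p that set the ranks, so these counts are not independent of the calls. They were not made over all called regions. The nearest protein-coding transcript start was that of the member itself for 26 of the 34 higher and 38 of the 44 lower regions with NaBu, and for 1 of 2 and 9 of 11 with NaPr.

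The wider pathway was read from 99 other genes, in 1677 regions. With NaPr, 23 regions were higher (2.49%) and 35 lower (3.79%) of 923 tested, against 3.1% and 2.22% of all regions. With NaBu, 186 were higher (20.7%) and 140 lower (15.6%) of 900, against 24% and 13.1% of all. With 1 denominator the counts were 35 and 63 with NaPr (4.54% and 3.97% of all regions) and 169 and 176 with NaBu (19.7% and 17.2% of all). By role, higher and lower regions with NaBu numbered 33 and 19 of 151 tested for WNT ligands, 51 and 27 of 204 for receptors and R-spondins, and 21 and 25 of 129 for secreted and cytoplasmic inhibitors. They numbered 28 and 22 of 154 for cytoplasmic transducers, 26 and 27 of 145 for nuclear partners, and 27 and 20 of 117 for other intestinal targets and stem-cell genes. The shares of higher regions lay between 16.3% and 25.0%, against 24% of all regions, and exceeded it for receptors and R-spondins alone. Those of lower regions lay between 12.6% and 19.4%, against 13.1% of all, and were below it for WNT ligands alone. Differences between roles were not tested. With NaPr each role had between 2 and 5 higher and between 4 and 8 lower regions.

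Some of the largest changes in these genes were at the same region in both experiments. CD44, a cell adhesion receptor of crypt cells, had a region (chr11:35166471-35167249) that ranked 18.5, 0 and 6.43 in untreated and 88.4, 83.3 and 78.5 in NaPr-treated libraries (adjusted p = 0.00316), and that was listed in no untreated and at a mean of 49.7 in NaBu-treated libraries (adjusted p = 5.53e-04). GSK3B, the kinase of the destruction complex, had a region (chr3:119831718-119832596) that went from 65.8, 51.1 and 64.8 to 88.1, 89.9 and 85.0 with NaPr and from 29.4, 1.01 and 21.7 to 77.5, 71.7 and 78.1 with NaBu (adjusted p = 0.00572 and 0.00102). In the other direction, BCL9L, a coactivator of β-catenin, had a region (chr11:118911115-118911362) at 68.6, 63.2 and 60.2 and 69.9, 66.0 and 69.7 in the untreated libraries that was listed in no treated library of either experiment (adjusted p = 0.0106 and 2.55e-04). A region near the ligand gene WNT6 (chr2:218858235-218859325) fell from 57.4, 64.3 and 61.7 to 0, 0 and 20.6 with NaPr and from 51.9, 46.5 and 56.3 to 12.0, 6.74 and 0 with NaBu.

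The remaining extremes by role differed between experiments. With NaPr the largest rises were near WNT11, FZD9, NKD2 and TLE3 (by 48.4, 53.0, 46.6 and 45.5 points) and the largest falls near ROR2, DKK3, DVL1 and CCND1. With NaBu the largest rises were near WNT6, ROR1, SFRP4 and TCF7L1 (by 56.5, 59.7, 50.9 and 45.4 points) and the largest falls near the receptor gene FZD10, the inhibitor gene NOTUM, CSNK1A1 and the stem-cell gene SMOC2. FZD10 was listed at 65.6, 72.3 and 66.6 in untreated and in no treated library (adjusted p = 2.83e-04).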

How the data were processed

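ATAC-seq libraries of SW480 were analysed as peak lists, 12 in all. The deposited −log10 p and −log10 q values and the fold enrichment over local background came from MACS2 2.1.0 (the authors, per the labels and paper), after cutadapt 1.9.1 and Bowtie2 2.3.1 on hg38. 8 lists of a mouse line were not used. Intervals touching in any library were merged into regions. A region's highest −log10 p was turned into a percentile rank within its library. Treated and untreated libraries were compared with limma 3.58.1 (R 4.3.3, trend, two-sided, Benjamini-Hochberg adjusted p below 0.05) on regions with a peak in at least 2 of 6 libraries. Tags at summits were solved from fold and p and scaled by the library median or the background pileup. Tags are those at the summit with the highest −log10 p, while fold enrichment is given as the highest of any summit in the region. Read depth of the libraries is unknown from the lists beyond that pileup.

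Named were each gene's promoter and, per experiment, its called region with the largest change each way, or the smallest p where none was called. Neighbours of these were added after their values were seen. The genes and lists were chosen with earlier results of these data known. Motifs were exact strings in the 200 bp around summits. The fit was tested on simulated data. No 2 libraries of the same group had more than 0.796% of intervals with an identical start and end. Alternatives tried are given in the closing section.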

Additional observations from a re-analysis of the deposited data

How the results depend on the processing

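The NaPr calls were fragile and the NaBu calls less so. Leaving out single libraries gave 0 to 4 higher and 0 to 4 lower member regions with NaPr (2 and 11 with all) and 0 to 3179 over all regions (6598), with every library moving the total by over 1.5 times: 3179, 832 and 342 without untreated replicates 1, 2 and 3, and 1182, 211 and 0 without treated replicates 1, 2 and 3. With NaBu the same gave 26 to 32 higher, 31 to 40 lower and 36865 to 42215 in all (34, 44 and 45903). No label pairs the samples by replicate number, and the values could not decide whether they were paired. Same-number libraries correlated at only 0.00492 to 0.0313 in their deviations, although 6 of 6 untreated libraries correlated best with their own number. With a replicate block the higher and lower member regions numbered 4 and 9 with NaPr (7647 in all) and 32 and 47 with NaBu (47756 in all), and it kept 8 of the 11 lower and both higher NaPr calls, and 43 of the 44 lower and 31 of the 34 higher NaBu calls. The 3 NaPr calls lost lay in AXIN2 (29.6 kb), NKD1 (87.7 kb) and RNF43 (2.1 kb), at adjusted p = 0.0599, 0.0569 and 0.0561.

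Higher member regions with NaPr numbered 0 when ranked by fold enrichment or with no filter, 1 without trend or where the nearest start is the member's, 4 with −log10 q of at least 2, with the top 50000 intervals or on tags scaled by the median, 5 on tags scaled by the background or with 1 denominator, and 6 in 50 kb windows. Lower ones numbered 0 by fold enrichment (where 11 higher and 11 lower had an unadjusted p below 0.05), 1 with no filter, 3 with intervals joined at 100 bp of overlap or on tags scaled by the background, 17 with 1 denominator or 50 kb windows, and 30 on tags scaled by the median. Over all regions the NaPr calls numbered 0 by fold enrichment (20921 at unadjusted p below 0.05), 1312 with no filter, 1948 with joined intervals, 10555 with 1 denominator and 20934 on tags scaled by the median. Pathway regions numbered 0 by fold enrichment (58 in the main comparison), and gained or lost regions 4 of 115 in the top 50000 (13 of 336). With NaBu, higher member regions numbered 15 of 78 tested in the top 50000 and 13 of 107 on tags by either scaling (34 of 185). Lower ones numbered 21 of 185 by fold enrichment, 21 of 78 in the top 50000, 21 of 107 with a peak in all 6 libraries and 25 of 145 in 500 bp summit windows (44 of 185), so that fewer regions were tested in the last 3. Calls over all regions numbered 22585 of 55410 tested in the top 50000 and 29971 of 72559 with a peak in all 6 libraries (45903 of 123730). In the top 50000, called pathway regions numbered 178 of 429 (326 of 900). Gained or lost regions there numbered 12 of 115 (26 of 336).

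Where one of the readings was called, directions turned on tags, as log2 changes, at the promoters of TCF7 with NaPr (-0.25 by the median) and, with NaBu by either scaling, of NKD1 (-0.14), RNF43 (-0.24) and TCF7L2 (-0.029 and -0.025), and at the SP5 region upstream (-0.071 and -0.066). Ranked by fold enrichment, NaBu directions turned at ZNRF3 (1.26 and 8.24 points), TCF7 (-1.32) and TCF7L2 (1.93, -0.849 and -0.037). Some promoters called in neither reading also turned, of which the AXIN2 promoter with NaBu moved most, from -2.78 to 12.9 points by fold enrichment. The cause was not tested. Percentile ranks do not measure amounts, and lists limited to 300000 summits cannot show regions below that limit.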

Other observations

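The untreated libraries of the experiments differed from each other, at these loci in shares close to those over all regions. Of 203 member regions, 64 (31.5%) ranked higher in all 3 untreated libraries of the NaBu experiment than in all 3 of the NaPr experiment, and 63 (31.0%) ranked lower. Over all 129821 regions the shares were 28.1% and 32.1%.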
